A study of Mus musculus with 8 samples.

Results

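The genes described here are 10 regulators of transcription that act in the thick ascending limb and distal tubule of the kidney: Sall3, Emx1, Emx2, Pou3f3, Irx1, Irx2, Irx3, Esrrb, Esrrg and the coactivator gene Ppargc1a. They were picked by symbol, with earlier results of these libraries known, and all 10 were found among the 47729 genes measured. Bulk RNA-seq was done on whole mouse kidneys at postnatal day 8. In the knockout group (n = 4) both alleles of Kctd1 were floxed and a Six2-driven Cre recombinase was present, and the comparison group, called wildtype here, was made of control littermates (n = 4). Whether the controls carried the Cre or a floxed allele was not given in the sources used here. Six2-driven Cre acts in nephron progenitors, so the tubule epithelium derived from them is targeted, while collecting duct, stroma and vessels descend from other cells. Nothing in the labels ties a library to an animal of its own, and p-values here reflect only how these libraries spread, which may in part be technical.

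The distal nephron is built from progenitors that pass through a segmented intermediate, and homeobox and POU genes set which stretch becomes loop and which becomes distal tubule. In the mature tubule the thick ascending limb reabsorbs sodium through the cotransporter Slc12a1, and the distal convoluted tubule takes up more through Slc12a3. Both segments are rich in mitochondria, whose genes are driven by estrogen-related receptors and their coactivators. Kctd1 belongs to the BTB domain proteins and is known as a repressor of AP-2 factors, and the comparison asked how these regulators stand in kidneys without nephron Kctd1.

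Of the 10 regulators, Sall3 fell in knockout kidneys, Emx1 lay lower in every knockout library but missed the threshold of the main test, and the other 8 had groups that overlapped. All 10 passed the filter on low counts. Sall3 was thus the 1 regulator lower at a Benjamini-Hochberg adjusted p under 0.05 in the quasi-likelihood test of edgeR, the main test throughout, where 0.0485% of all 18548 tested genes were called lower. In the other direction 0 were called, where 0.0323% of all genes were called higher, and 0.0809% of all genes passed in either direction. DESeq2 called 2 lower, Sall3 and Emx1, against 0.430% of its 23019 genes with an adjusted p, or 0.669% in either direction. At an unadjusted edgeR p under 0.05, 2 regulators were lower, against 3.08% of all genes, and 0 were higher, against 3.11%. The 10 log2 fold changes ran from -0.91 to 0.02 with a median of -0.14, beside a median of 0.00 over all genes, and 9 of the 10 were negative, beside 49.7% of all genes. Because the genes were chosen with this contrast known, these counts describe them and test nothing about the group.

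Libraries held 14457760 to 20741076 counts. Knockout 2 and wildtype 3 carried Xist counts of 81994 and 101295, against at most 151 elsewhere, 1 such library per group, the pattern of female mice. Knockout 2 also had 5.39% of its counts on the ribosomal RNA gene Rn18s-rs5, against 0.361% to 1.14% in the others. Knockout 1 stood apart in some collecting duct genes, as described with Irx1 below. Without knockout 1 edgeR called 0 of the 10 regulators, where 0.0364% of the genes of that fit were called lower. At an unadjusted p under 0.05, 5 were lower there, beside 3.32% of all genes. Leaving out knockout 2 also gave 0 calls, where 0.0480% of genes were called lower, and 2 at an unadjusted p under 0.05, beside 3.06% of all genes. Kctd1 itself was at 77.0% of the wildtype level (log2 fold change -0.38 ± 0.09, SE; edgeR adjusted p = 0.279; DESeq2 adjusted p = 0.022). A gene total does not separate deleted from retained exons.

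**Figure D1:**
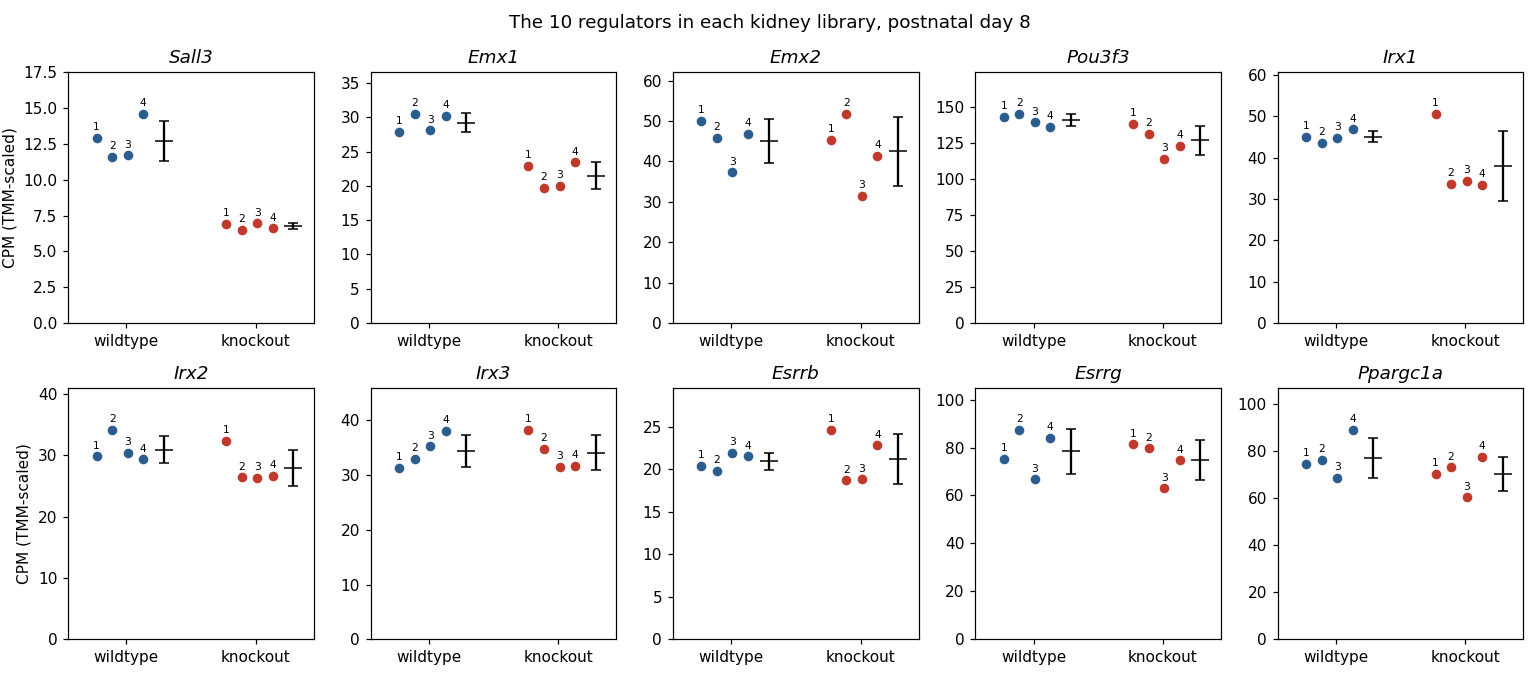
Normalised read counts (CPM, scaled by library total and TMM factor, linear axes) of the 10 regulators, 1 panel per gene, with 1 point per library and the mean and SD of each group of 4. For Sall3 the knockout libraries sit between 6.51 and 6.97 CPM and the wildtype libraries between 11.6 and 14.6 CPM, and for Emx1 the highest knockout library is at 23.4 CPM and the lowest wildtype library at 27.9 CPM.

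Sequences are shown for the genes whose RefSeq promoter window holds the AP-2 letters, since AP-2 factors are the known partners of Kctd1. The windows span 250 bases before to 50 bases after a RefSeq start (GRCm38.p6), and 8 of the 10 genes had windows, 12 in all. Sall3 and Irx1 had no window, so their promoters were not searched. The letters searched were GCCNNNGGC, which read the same on both strands and were the only motif searched. They stood in 3 of the 12 windows, 1 each of Emx1, Irx2 and Esrrg, and in 16.6% of all 32851 windows. The capitals mark the match, with 10 bases on either side, on the plus strand from 5′ to 3′.
Emx1, chr6:85187941-85187969: cgatgttccaGCCCGCGGCtaagcggggt
Irx2, chr13:72628612-72628640: cctccctccaGCCTCTGGCtgccactcct
Esrrg, chr1:187652013-187652041: cggggacacaGCCTGGGGCcgggccctgg
The Emx1 match begins 20 bases after the RefSeq start and lies in an Emx1 coding exon of the GENCODE annotation. The Irx2 match lies 198 bases before its start and overlaps no annotated gene. The Esrrg match lies 218 bases before 1 of that gene's 4 annotated RefSeq starts, within the Esrrg gene and outside its annotated exons. A match of these letters is a description of the sequence and says nothing about binding. Emx2, Pou3f3, Irx3, Esrrb and Ppargc1a had no match in their windows.

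Sall3 encodes a zinc finger transcription factor of the spalt family and is known in the kidney as a gene of the distal convoluted tubule. Its locus is chromosome 18, 80966376 to 80986771 (minus strand of GRCm38, the build of all gene positions here), 65814929 bases from Kctd1 on the same chromosome. It measured 6.92, 6.51, 6.97 and 6.62 CPM in knockout 1 to 4, against 12.9, 11.6, 11.7 and 14.6 in wildtype 1 to 4. The knockout libraries lay close together, with an SD of 0.225 CPM beside 1.40 CPM in wildtype, and every one was below every wildtype library. The knockout mean was 53.1% of the wildtype mean, a log2 fold change of -0.91 ± 0.12 (SE; edgeR adjusted p = 0.0243; DESeq2 adjusted p = 1.3e-06). Sall3 was the scarcest of the 10 per transcript length, at 0.97 ± 0.148 TPM (transcript counts scaled for length and depth; SD, n = 4) in wildtype kidneys, and its calls rested on 101 to 304 counts per library. Under 17 alternative fits the log2 fold change ran from -0.95 to -0.84, except for -0.42 by limma on log2(TPM + 1), where the pseudocount is larger than the mean Sall3 level of either group, and the adjusted p from 1.3e-06 to 0.293, with 7 fits past the threshold. When 1 library was left out in turn, Sall3 passed in 2 of 8 fits, those without knockout 3 and without wildtype 4, at adjusted p values of 0.0391 to 0.108 over all 8.

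In a whole kidney fewer cells of a type and less RNA per cell cannot be told apart, and this holds for each gene below. Beside the Sall3 values, the summed CPM of 9 distal convoluted tubule markers was 751 to 846 in knockout and 1125 to 1205 in wildtype libraries, with all 9 genes above 0 in each library. The log2 fold change was negative for all 9 markers, from -2.01 to -0.02 with a median of -0.44, and 2 of them, Slc12a3 and Pvalb, fell. With knockout 1 left out, and likewise with knockout 2 left out, 8 of the 9 were negative. Slc12a3, the largest part of the wildtype sums, had a wildtype mean of 464 CPM and a knockout mean of 247 CPM. Kcnj16, the next largest part there, stood at 98.6% of its wildtype level. DESeq2 called 4 of the 9 lower, 7 had an unadjusted edgeR p under 0.05, and in 6 the groups did not overlap. Over all genes the shares in the lower direction were 0.430%, 3.08% and 2.06%. The 10 thick ascending limb markers summed to 2846 to 3315 and 2885 to 3039 CPM, ranges that overlapped. Umod and Slc12a1, the largest parts of these sums, had log2 fold changes of opposite sign, 0.54 and -0.26. Of the 10 markers 7 were negative and 3 positive, at a median of -0.14. Egf was lowest, at a log2 fold change of -1.09 ± 0.16 (SE; edgeR adjusted p = 0.0599; DESeq2 adjusted p = 2.9e-07). Of these 10 markers edgeR called 0, and DESeq2 called 2 lower and 1 higher, beside 0.430% and 0.239% of all genes. The unadjusted edgeR p was under 0.05 for 3 lower and 1 higher, beside 3.08% and 3.11% of all genes. The part of cell number in the Sall3 result was not tested.

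Emx1 and Emx2 encode closely related homeobox factors best known from the developing cerebral cortex, and Emx2 is required for the urogenital tract to form. Emx1 (chromosome 6, 85187438 to 85204462, plus strand) measured 22.9, 19.7, 20 and 23.4 CPM in knockout 1 to 4, against 27.9, 30.5, 28.1 and 30.2 in wildtype 1 to 4. The groups did not overlap, which held in the lower direction for 2 of the 10 regulators and for 2.06% of all genes. The knockout mean was 73.7% of wildtype, with a log2 fold change of -0.44 ± 0.09 (SE; edgeR adjusted p = 0.224). DESeq2 placed Emx1 past the threshold (adjusted p = 0.00921), the 1 of 17 alternatives that did, and the others reached up to 0.576.

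Emx2 (chromosome 19, 59458372 to 59465357, plus strand) measured 45.4, 51.8, 31.5 and 41.4 CPM in knockout 1 to 4, against 50.1, 45.9, 37.3 and 46.8 in wildtype 1 to 4. The groups overlapped, and knockout 2 was the highest of all 8 libraries while knockout 3 was the lowest. Its log2 fold change was -0.08 ± 0.15 (SE; edgeR adjusted p = 0.969), the largest standard error of the 10. Emx2os, a noncoding gene on the opposite strand that overlaps Emx2 by 264 bases, had a log2 fold change of 0.11 ± 0.14. The library kit keeps strand, but the strand setting of the counting was not given in the sources used here, so reads in such overlaps may not be told apart.

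Pou3f3 encodes a POU domain factor that mice need to form the loop of Henle and the distal tubule. Its locus is chromosome 1, 42695768 to 42703176 (plus strand). Pou3f3 measured 138, 131, 114 and 123 CPM in knockout 1 to 4, against 143, 145, 139 and 136 in wildtype 1 to 4. Only knockout 1 reached the wildtype range, above wildtype 4 and below the other 3. The log2 fold change of -0.15 ± 0.07 was far from the threshold (edgeR adjusted p = 0.821), at 89.9% of the wildtype level. The noncoding neighbours Pantr1 and Pantr2 had log2 fold changes of -0.20 ± 0.24 and 0.19 ± 0.17. Of the 4 noncoding neighbours listed for the 10 regulators, 0 were called by edgeR or DESeq2 or had an unadjusted edgeR p under 0.05. That list is not complete, and it holds no neighbour of Sall3, such as Gm27239 on the opposite strand.

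Of 5 thick limb genes known to be low without Pou3f3, 0 passed with edgeR. DESeq2 called 1 higher, Umod, beside 0.239% of all genes. The unadjusted edgeR p was under 0.05 for 1 lower and 1 higher, beside 3.08% and 3.11% of all genes. The median log2 fold change of the 5 was -0.05. Umod, which encodes the urinary protein uromodulin, measured 1341, 1113, 1178 and 1194 CPM in the knockouts and 768, 822, 806 and 929 in wildtype. Every knockout library was above every wildtype library, as for 1.97% of all genes, and the log2 fold change was 0.54 ± 0.08 (edgeR adjusted p = 0.0599; DESeq2 adjusted p = 3.6e-06). Umod passed with edgeR under upper-quartile scaling, with no filter on low counts and without wildtype 4. Slc12a1, the sodium potassium chloride cotransporter of the thick limb, had a log2 fold change of -0.26 ± 0.08 (adjusted p = 0.553 by edgeR) and Bsnd, a chloride channel subunit gene, one of 0.07 ± 0.07. Umod and Slc12a1 thus had opposite signs in the same libraries.

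Irx1, Irx2 and Irx3 encode Iroquois homeobox factors, known from frog and zebrafish to shape the intermediate and distal segments of the early kidney. Irx1 and Irx2 are neighbours on chromosome 13, at 71957921 to 71963723 (minus strand) and 72628820 to 72634198 (plus strand), 665096 bases apart. Irx1 measured 50.6, 33.6, 34.4 and 33.4 CPM in knockout 1 to 4, against 45.1, 43.6, 44.8 and 46.8 in wildtype 1 to 4. Knockout 1 was the highest of all 8 libraries and the other 3 knockouts were below every wildtype library. Irx1 had a log2 fold change of -0.25 ± 0.13 (SE; edgeR adjusted p = 0.846). Irx2 measured 32.3, 26.4, 26.3 and 26.6 CPM in the knockouts and 29.8, 34.1, 30.4 and 29.3 in wildtype, with knockout 1 again the highest knockout, and its log2 fold change was -0.15 ± 0.10 (adjusted p = 0.907 by edgeR). Irx3, on chromosome 8 from 91798525 to 91802067 (minus strand), measured 38.2, 34.8, 31.5 and 31.7 CPM in the knockouts and 31.3, 32.9, 35.2 and 38.0 in wildtype. Its groups covered nearly the same range, and the log2 fold change was -0.01 ± 0.10 (adjusted p = 0.993 by edgeR).

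Without knockout 1 the log2 fold change of Irx1 was -0.41 ± 0.07, over 1.5 times the value with all libraries, and that of Irx2 was -0.23 ± 0.09. Neither passed in that fit, at adjusted p values of 0.19 and 0.712 by edgeR. In the same fit all 10 regulators were negative, at a median of -0.17, beside 50.6% of all genes. The 5 regulators at an unadjusted p under 0.05 in that fit were Sall3, Emx1, Pou3f3, Irx1 and Irx2.

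Knockout 1 also differed from the other libraries in some genes of the collecting duct and connecting tubule, though not in all of them, and the genes named in this paragraph were chosen after their values were seen. Aqp2, the water channel of collecting duct principal cells, measured 478 CPM in knockout 1, 149 to 202 CPM in the other knockouts and 175 to 202 CPM in wildtype. Aqp4, a second water channel of these cells, measured 78.9 CPM against 30.8 to 47.1 and 35.3 to 47.8 CPM. The 6 principal cell markers summed to 922 CPM in knockout 1, to 497 to 579 CPM in the other knockouts and to 549 to 575 CPM in wildtype, and Aqp2 made up most of that difference. Aqp3, from the same list, was also highest in knockout 1, at 148 CPM. The sodium channel subunit genes Scnn1b and Scnn1g, from that list too, measured 117 and 76.8 CPM in knockout 1, within the range of the other 7 libraries. The 5 connecting tubule markers summed to 738 CPM in knockout 1, to 1044, 1281 and 1146 CPM in knockout 2 to 4 and to 1202 to 1446 CPM in wildtype. Klk1, the kallikrein gene of that segment, was low in knockout 1, at 165 CPM against 349 to 455 and 458 to 596 CPM. S100g and Calb1, from the same list, were also lowest there, at 289 and 228 CPM. Slc8a1 was highest there at 34.4 CPM, and Trpv5, a calcium channel gene, was within range at 22.4 CPM. The homeobox gene Lhx1, active in early nephrons, measured 21 CPM against 5.24 to 8.46 and 6.78 to 15.5 CPM, and Pax2, a paired box gene of nephron and duct, 92.0 CPM against 55.9 to 68.5 and 60.3 to 71.6 CPM. Whether the high Irx1 and Irx2 values go with these genes was not tested. Sall3 in knockout 1 was 1.03 times the mean of the other 3 knockouts, and Irx1 was 1.5 times that mean.

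**Figure D2:**
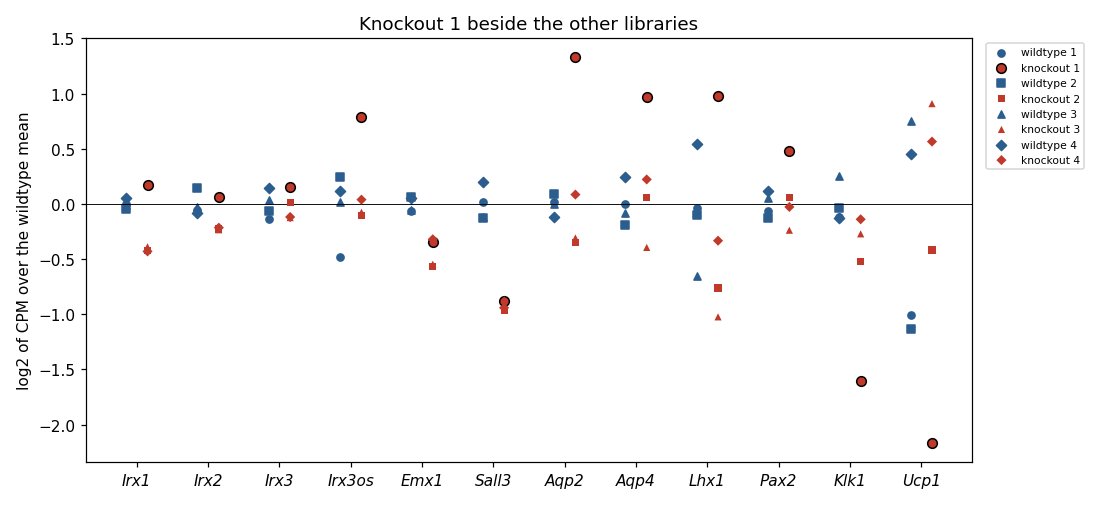
Log2 ratio of the CPM of each library to the wildtype mean of the gene, with 0 at that mean, for Irx1, Irx2, Irx3, Irx3os, Emx1, Sall3 and 6 genes chosen after their values were seen (knockout 1 as outlined circles, other knockouts in red, wildtype in blue). For Irx1 knockout 1, at 50.6 CPM, lies above all other libraries and the other 3 knockouts lie below all wildtype libraries, for Sall3 the 4 knockouts lie together, and knockout 1 is the highest library for Aqp2, Aqp4, Lhx1 and Pax2 and the lowest for Klk1 and the brown fat gene Ucp1.

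Esrrb and Esrrg encode orphan nuclear receptors related to the estrogen receptors, and Ppargc1a encodes the coactivator that works with them on mitochondrial genes. Esrrb (chromosome 12, 86361117 to 86521628, plus strand) measured 24.6, 18.7, 18.8 and 22.8 CPM in the knockouts and 20.4, 19.8, 21.9 and 21.5 in wildtype. The wildtype range lay inside the knockout range, and the log2 fold change was 0.02 ± 0.11 (edgeR adjusted p = 0.991). Esrrg (chromosome 1, 187608791 to 188214885, plus strand) measured 81.4, 79.6, 63.0 and 74.6 CPM in the knockouts and 75.4, 87.3, 66.7 and 84.0 in wildtype, and the groups overlapped. Its log2 fold change was -0.07 ± 0.11 (adjusted p = 0.959 by edgeR). Ppargc1a (chromosome 5, 51454250 to 51567726, minus strand) measured 70.4, 73.1, 60.4 and 77.6 CPM in the knockouts and 74.5, 76.4, 68.8 and 89.0 in wildtype. Its groups overlapped too, at a log2 fold change of -0.13 ± 0.10 (adjusted p = 0.92 by edgeR), which was -0.07 without knockout 3 and -0.06 without wildtype 4. Brown fat also expresses Ppargc1a, and 5 markers of that tissue summed to 40.9 to 202 CPM in knockout and 56.7 to 171 CPM in wildtype libraries, with Elovl3 at 0 to 0.149 CPM. The part of attached fat in the Ppargc1a values was not tested.

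Among 16 mitochondrial genes listed as targets of these receptors and Ppargc1a, 0 passed with edgeR. DESeq2 called 1 lower, beside 0.430% of all genes. At an unadjusted edgeR p under 0.05, 2 were lower, beside 3.08% of all genes, and 0 were higher. The log2 fold change was negative for 15 of the 16, beside 49.7% of all genes, at a median of -0.09. Without knockout 1, 15 of the 16 were negative, beside 50.6% of all genes, and the median was -0.08. Without knockout 2, the library rich in ribosomal RNA, 11 of the 16 were negative, beside 49.3% of all genes, and the median was -0.07. Ckmt1, a mitochondrial creatine kinase gene, measured 47.7, 43.1, 51.4 and 47.5 CPM in the knockouts and 63.4, 63.3, 58.5 and 54.7 in wildtype. All 4 knockout libraries lay below all 4 wildtype libraries (log2 fold change -0.34 ± 0.08; edgeR adjusted p = 0.338; DESeq2 adjusted p = 0.0444). Ndufs1, a subunit gene of respiratory complex I, had a log2 fold change of -0.17 ± 0.06, and Perm1, a regulator of muscle mitochondria measured with 25 to 95 counts, one of -0.51 ± 0.24. Both had groups that did not overlap and missed the threshold with both tools. Groups lay apart in the lower direction for 3 of the 16 genes and for 2.06% of all genes.

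**Figure D3:**
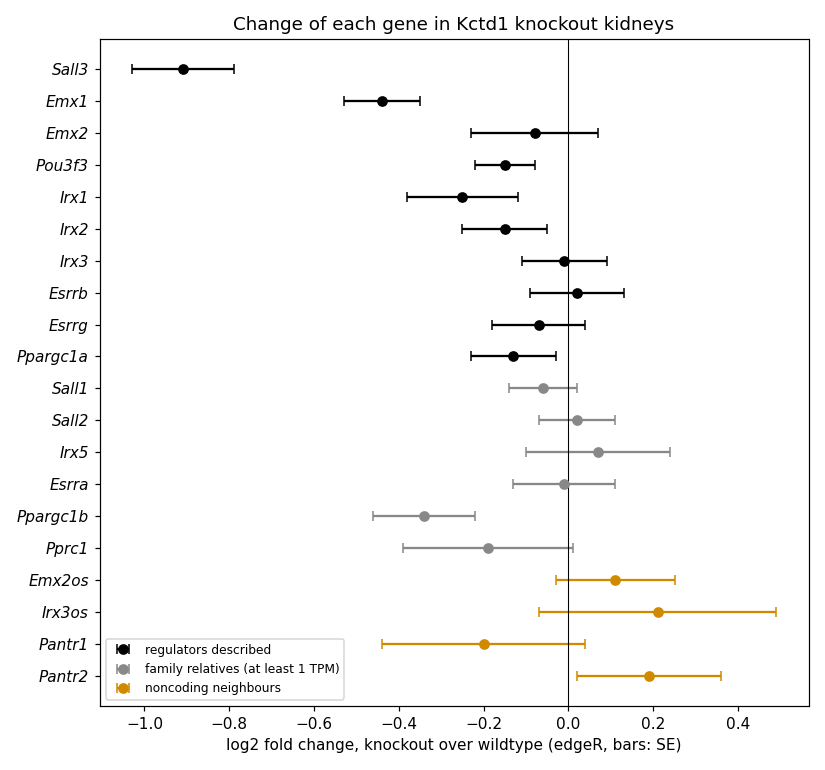
Log2 fold change of knockout over wildtype from edgeR, with its standard error as a bar, for the 10 regulators (black), their 6 relatives with at least 1 TPM (grey) and 4 noncoding neighbours (orange). Sall3 at -0.91 lies farthest from 0, Emx1 follows at -0.44, and the relatives lie between -0.34 and 0.07.

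Other genes of the same families were looked at as 1 list of 12. Of these, 6 were too low to be tested, with at most 12 counts in any library: Sall4, Pou3f1, Pou3f2, Pou3f4, Irx4 and Irx6. The 6 that were tested had a median log2 fold change of -0.03, and 0 were called by edgeR or DESeq2. At an unadjusted edgeR p under 0.05, 1 was lower, beside 3.08% of all genes. Sall1, the spalt gene needed for the ureteric bud to invade the kidney mesenchyme, averaged 58.2 ± 4.22 CPM in the knockouts and 60.5 ± 3.61 in wildtype (SD, n = 4 each), a log2 fold change of -0.06 ± 0.08, and Sall2 had a log2 fold change of 0.02 ± 0.09. Irx5 stood at 0.07, Esrra, the third receptor of its family, at -0.01, and Pprc1, a further coactivator gene, at -0.19. Ppargc1b, the closest relative of Ppargc1a, measured 8.86, 11.0, 9.80 and 9.61 CPM in the knockouts and 11.7, 12.8, 13.7 and 11.5 in wildtype. Its groups did not overlap, as for 2.06% of all genes in the lower direction. The log2 fold change of -0.34 ± 0.12 missed the threshold (edgeR adjusted p = 0.652).

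Of 28 further transcription factors of the nephron, 0 passed with edgeR or DESeq2, and the median log2 fold change was 0.04. At an unadjusted edgeR p under 0.05, 1 was lower and 3 were higher, where 3.08% of all genes were lower and 3.11% higher. Elf3, an epithelial Ets factor gene, measured 44.7, 40.9, 37.9 and 37.5 CPM in the knockouts and 30.7, 34.9, 29.4 and 31.8 in wildtype (log2 fold change 0.35 ± 0.09; edgeR adjusted p = 0.382). Foxi1, the forkhead factor gene of intercalated cells, measured 43.8, 52.2, 54.6 and 57.5 CPM in the knockouts and 41.3, 42.3, 43.4 and 39.6 in wildtype (log2 fold change 0.32 ± 0.09, adjusted p = 0.468). For both genes every knockout library was above every wildtype library, which held for 2 of the 28 factors and for 1.97% of all genes. Mecom, a zinc finger regulator gene, had a log2 fold change of -0.24 ± 0.09 and groups that overlapped. The 5 intercalated cell markers summed to 263 to 291 CPM in knockout and 227 to 259 CPM in wildtype libraries, but these sums include Foxi1 itself. All 5 log2 fold changes were positive, at a median of 0.22, beside 0.00 over all genes. Foxi1 was the only 1 of the 5 whose groups did not overlap. Whether Foxi1 rests on the other markers was not tested.

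On the TPM scale, which allows levels of different genes to be compared, Irx2 was highest in wildtype kidneys at 18.6 ± 0.714 TPM (SD, n = 4), followed by Emx2 at 17.2 ± 2.36 TPM. Emx1 stood at 12.6 ± 0.803 TPM. Irx1, Esrrg and Pou3f3 followed at 10.7 ± 0.763, 10.6 ± 1.32 and 9.90 ± 0.228 TPM. Irx3 and Ppargc1a were at 7.40 ± 0.876 and 6.36 ± 0.927 TPM, Esrrb at 2.69 ± 0.213 TPM and Sall3 last. Neighbours in this order overlapped in their wildtype ranges for Irx2 and Emx2, Irx1 and Esrrg, Esrrg and Pou3f3, and Irx3 and Ppargc1a, so their order is not fixed by these libraries.

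Ratios of TPM values within a library set Sall3 and Emx1 beside other transcripts of the distal tubule, without regard to library scaling. They are descriptions, since the genes were chosen with this contrast known. Per 100 Slc12a3 transcripts there were 1.18, 1.16, 1.6 and 1.19 of Sall3 in knockout and 1.37, 1.11, 1.19 and 1.39 in wildtype, so these ranges overlapped around means of 1.28 and 1.26. Per 100 Slc12a3 transcripts there were 22.1, 20, 25.9 and 23.7 of Emx1 in knockout and 16.7, 16.5, 16.2 and 16.3 in wildtype, which did not overlap. The Emx1 ratio was nearly constant among wildtype libraries, with an SD of 0.228, and spread more widely among knockouts, with an SD of 2.53. Sall3 thus lay lower by about as much as the cotransporter did, and Emx1 by less.

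Pvalb, the calcium-binding protein gene of the early distal convoluted tubule, differed by more than Sall3. Per 100 Pvalb transcripts the knockouts held 7.48 ± 1.04 of Sall3 (SD, n = 4) and wildtype 3.5 ± 0.784, with no overlap. Per 100 Emx1 transcripts there were 5.59 ± 0.517 of Sall3 in knockout and 7.69 ± 0.820 in wildtype, again with no overlap. Pou3f3 per 100 Slc12a1 transcripts was 7.74 ± 0.257 and 7.21 ± 0.317, and Irx1 per 100 Slc12a1 transcripts was 7.79 ± 1.03 and 7.80 ± 0.495, and in both the groups overlapped.

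**Figure D4:**
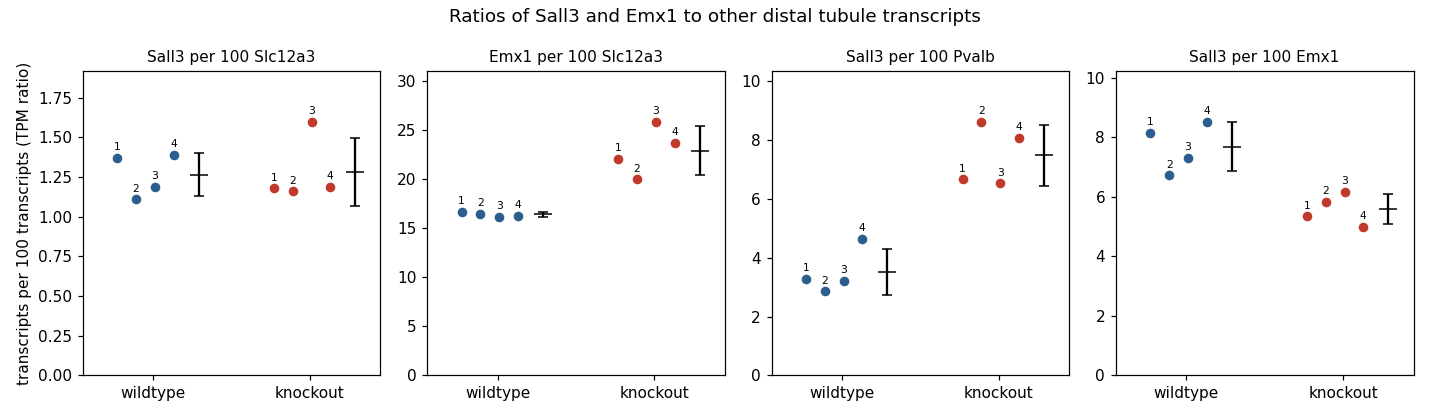
Ratios of TPM values in each library, as transcripts per 100 transcripts of the second gene, with 1 point per library and the mean and SD of each group of 4. Sall3 per 100 Slc12a3 overlaps between groups, Emx1 per 100 Slc12a3 and Sall3 per 100 Pvalb are higher in all 4 knockout libraries, and Sall3 per 100 Emx1 is lower in all 4.

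The genes whose pattern over the 8 libraries was nearest to that of Sall3 were found by the root mean square difference of log2 CPM, each gene centred on its own mean, among 16874 genes with at least 1 CPM. Kng2, a kininogen gene, was nearest at 0.0884, followed by Rab37, a small GTPase gene, at 0.0895 and Rhpn1 at 0.111. Slc4a11, a transporter gene of the thin limbs, and Fabp3, a fatty acid binding protein gene, were next at 0.144 and 0.148. Kng2 measured 140, 130, 137 and 142 CPM in the knockouts and 270, 257, 262 and 269 in wildtype. Rab37 rested on 16 to 54 counts per library and was not called (log2 fold change -0.89 ± 0.24; edgeR adjusted p = 0.422). The other 4 fell, by 0.94 for Kng2, 0.75 for Rhpn1, 0.84 for Slc4a11 and 0.79 for Fabp3 on the log2 scale. The measure includes the difference between the groups, which the choice of Sall3 already used.

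By the same measure Slc12a3 ranked 8 at 0.166 and Emx1 ranked 52 at 0.259. Of the other regulators Irx1 ranked 428, Pou3f3 1091, Ppargc1a 1303, Irx2 1484, Esrrg 3988, Irx3 4933, Emx2 5492 and Esrrb 7011. Pvalb, whose fall was larger, ranked 13347 and so was farther from Sall3 than any of the regulators were.

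**Figure D5:**
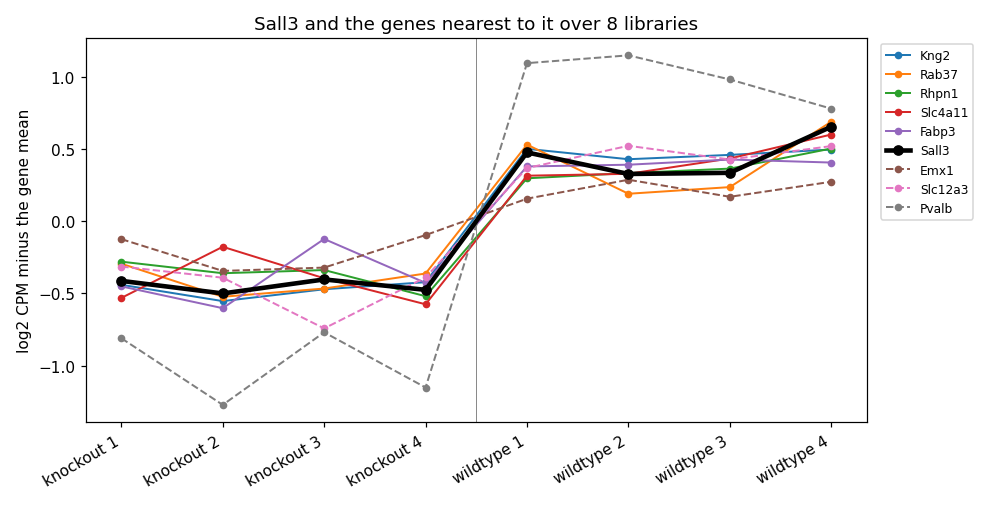
Log2 CPM minus each gene's mean over the 8 libraries, for Sall3 (thick black), the 5 genes nearest to it and, dashed, Emx1, Slc12a3 and Pvalb. The lines join the points of a gene and carry no order among replicates. The 5 nearest genes were picked for lying close to Sall3. Emx1 steps by less between the groups than Sall3 does, and Pvalb by more.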

How the data were processed

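Libraries were prepared from total RNA of whole kidneys with a directional kit, per the labels' protocols. Salmon (no version), DESeq2 1.14.1 and mm10 are named in the submitters' processing notes; which annotation release was used was not given in the sources used here. Per gene, the authors deposited estimated counts in whole numbers, without names, and TPM values with identifiers and symbols. The 47729 rows of counts were matched in order to as many distinct TPM identifiers, 2 of which occur on 2 rows. For 13251 genes that reached 50 counts throughout, the log2 ratio of count to TPM varied over libraries with a median SD of 0.00074, against 0.281 after a shift by 1 row. Every pair of libraries differed by more than sampling noise.

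The main test was the quasi-likelihood test of edgeR 4.0.16 (R 4.3.3), two-sided, robust, with TMM factors and genotype as the model. It ran on 18548 genes kept by filterByExpr, and p-values were Benjamini-Hochberg adjusted over all of them, with a threshold of 0.05. Standard errors are |log2 fold change| over the root of F. CPM values use TMM-scaled library sizes. The biological coefficient of variation was 20.7%. In counts simulated for this contrast over 18548 genes, recovery was 32.8% at 1.5-fold (67 genes), 62.7% at 2-fold (67) and 93.9% at 4-fold (66), and 8 of 134 calls were false. Alternatives were RLE and upper-quartile scaling, no filter, a filter of 1 CPM in 4 libraries, DESeq2 1.42.0, limma 3.58.1 on TPM with pseudocounts of 1 and 0.1, the replicate block, each library left out, and both libraries with Xist reads left out.

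The regulators and the gene lists were chosen with earlier results of these data known. Named are all 10 regulators, relatives with at least 1 TPM, the 4 noncoding neighbours listed and the 5 genes nearest to Sall3. From the other lists, genes past the threshold are named or, where fewer than 3 passed, those with the smallest p up to 3. Lists that serve only as cell markers are given as sums, and their genes are named where a result turns on them. Promoter sequences came from RefSeq (GRCm38.p6) and gene coordinates from GENCODE M21 (GRCm38, the assembly mm10 denotes).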

Additional observations from a re-analysis of the deposited data

Results flagged for a closer look

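Looked at were 152 groups of 4 libraries, for the genes that the naming rule above takes from all lists, and Kctd1. That rule leaves out many list genes, among them Aqp2, which was high in knockout 1. In 7 of the 152 groups the highest or lowest library stood apart from the other 3 by more than Dixon's critical value allows. Chance flags about 1 in 20, or 7.6 groups. Knockout 1 was the library in 4 of the 7, and it was the highest in each. There Irx1 measured 50.6 CPM against 33.4 to 34.4 CPM in the other knockouts, and Irx2 measured 32.3 CPM against 26.3 to 26.6 CPM. Irx3os, the antisense neighbour of Irx3, measured 3.52 CPM against 1.89 to 2.09 CPM, and Meox1, a nephron progenitor gene, 17.9 CPM against 15.7 to 16.0 CPM. Over all 18548 tested genes knockout 1 stood apart in this way at the high end for 0.96% and at the low end for 0.555%, shares within the range of the other libraries. In wildtype 2 the fat droplet gene Plin1 was low at 11.2 CPM against 20.1 to 21.4 CPM, and Kctd1 was low at 28.9 CPM against 32.1 to 32.6 CPM. In wildtype 4 the muscle gene Tnnt3 was high at 1.35 CPM against 0.589 to 0.609 CPM.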

How the results depend on the processing

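Of 170 log2 fold changes of the 10 regulators under 17 alternatives each, 149 kept their direction and side of the threshold, 10 lost the call, 1 gained it and 10 changed sign. The number of genes past the threshold was 15, with 27 without a filter, 154 by DESeq2 (55 higher, 99 lower), 6 by limma on log2(TPM + 1) and on log2(TPM + 0.1), 3 without knockout 2 and wildtype 3 together and 10 to 52 when 1 library was left out, 29 without knockout 3 and 52 without wildtype 4. Of the 10 regulators 1 passed, with 2 by DESeq2, 0 by limma on either TPM scale, 0 without knockout 2 and wildtype 3 together and 0 to 1 when 1 library was left out. With the replicate block edgeR called 10 genes and 0 of the 10 regulators, and Sall3 had an adjusted p of 0.198. Over all genes same-numbered libraries did not deviate together (correlations of -0.081 to 0.0363), but such correlations cannot exclude a batch shared by some libraries. The 5 brown fat markers summed to 40.9, 92.3, 202 and 152 CPM in knockout 1 to 4. In wildtype 1 to 4 they summed to 74.2, 56.7, 171 and 142 CPM. In both groups replicates 1 and 2 had lower sums than replicates 3 and 4, and whether this pattern marks a batch was not tested. DESeq2 called 1 receptor target, Ckmt1, and of the Pou3f3-dependent genes 1, Umod, passed with DESeq2, under upper-quartile scaling and without a filter, and 0 to 1 when 1 library was left out. Sign changes, all between values near 0, were 0.04 for Emx2 and 0.00 for Esrrg without knockout 3, and for Irx3 0.02 without knockout 3, 0.02 without knockout 4 and 0.04 without wildtype 4. Esrrb had -0.09 and -0.13 by limma with pseudocounts of 1 and 0.1, and -0.06, -0.02 and -0.01 without knockout 1, knockout 4 and wildtype 2. Over the fits that left out 1 library, the ranges were -0.19 to 0.04 for Emx2, -0.08 to 0.04 for Irx3, -0.06 to 0.08 for Esrrb, -0.14 to 0.00 for Esrrg and -0.18 to -0.06 for Ppargc1a. The TPM scale shifts the median of all genes to -0.106 and -0.141 (log2), so Esrrb lies near that median. By TPM the knockout level was 48.5% of wildtype for Sall3 and 81.8% for Pou3f3. The causes of these differences were not tested. Depth and n limit small changes: 1.5-fold changes were mostly missed in the simulation.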
